A study of Mus musculus with 17 samples.

Results

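Cathepsins are proteases of the lysosome and the endosomes, and 10 genes of the family (Ctsa, Ctsb, Ctsc, Ctsd, Ctse, Ctsh, Ctsk, Ctsl, Ctss and Ctsz) are described here in kidney macrophages of lupus-prone mice. The genes were taken by symbol from an array table of 15780 named genes, in which each gene has 1 probe set, and all 10 were measured. The cells were F4/80hi cells sorted by flow cytometry from kidneys of NZB/W mice, a hybrid strain that develops lupus nephritis spontaneously. Remission arrays (n = 4) came from mice 3 to 4 weeks after complete remission, which had been given 1 dose of cyclophosphamide, 6 doses of CTLA4Ig and an antibody to CD154. Nephritic arrays (n = 7) came from mice with 2 to 6 weeks of proteinuria that had not reached terminal renal failure. Prenephritic arrays (n = 6) came from mice aged 8 to 16 weeks. The titles call the prenephritic mice young and the labels give no age for the other 2 groups, so age and disease cannot be told apart, and neither can remission and the 3 drugs. Nothing in the labels says that the samples of a group came from separate animals, so p-values here reflect the spread among the deposited samples alone, which may be technical.

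Cathepsins are made as inactive precursors, are tagged with mannose 6-phosphate in the Golgi and are activated in acidic compartments. The family spans several enzyme mechanisms. Ctsd and Ctse are aspartic proteases, Ctsa is a serine carboxypeptidase, and Ctsb, Ctsc, Ctsh, Ctsk, Ctsl, Ctss and Ctsz are cysteine proteases of the papain family. In macrophages these enzymes degrade engulfed proteins, trim the invariant chain and antigens for class II presentation, and, when released, cut matrix proteins. Cystatins inhibit the cysteine cathepsins. The transcription factor TFEB and its relatives bind an E-box-like element in the promoters of many lysosomal genes.

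The values are RMA log2 levels, so a difference of 1 is a 2-fold change. They carry no true zero, and levels of different genes are not compared because probes differ in brightness. Correlations between arrays over all named genes ran from 0.942 to 0.994. F4/80 itself (Adgre1), the antigen of the sort, averaged 13.23 ± 0.14 in remission, 13.24 ± 0.09 in nephritic and 13.08 ± 0.18 in prenephritic arrays (SD), and did not pass the test between any pair of groups (limma adjusted p = 0.952 for remission minus nephritic, 0.212 for nephritic minus prenephritic and 0.364 for remission minus prenephritic). The 8 macrophage markers checked had a mean level of 11.44 to 11.72 in remission, 11.82 to 12.03 in nephritic and 11.42 to 11.64 in prenephritic arrays. Only Itgam and Mertk of these markers passed, both higher in nephritic arrays than in either other group. The median difference of the list was -0.006 in nephritic minus prenephritic and 0.004 in remission minus nephritic arrays. Markers of kidney tubule cells were present in the sorted samples too, and their values are given with the results that they accompany. In bulk samples, fewer cells of a type and less RNA per cell cannot be told apart.

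The 250 bases before the start of Ctsd, Ctsl and Ctsk are shown because these genes had the largest called differences of the family. The sequences are RefSeq's for the mouse assembly GRCm38.p6, written 5′ to 3′ on the strand of the gene, and the capitals mark the palindromic E-box CACGTG. The windows are chr7:142387828-142388077 on the minus strand for Ctsd, chr13:64370521-64370770 on the minus strand for Ctsl and chr3:95498960-95499209 on the plus strand for Ctsk.
Ctsd: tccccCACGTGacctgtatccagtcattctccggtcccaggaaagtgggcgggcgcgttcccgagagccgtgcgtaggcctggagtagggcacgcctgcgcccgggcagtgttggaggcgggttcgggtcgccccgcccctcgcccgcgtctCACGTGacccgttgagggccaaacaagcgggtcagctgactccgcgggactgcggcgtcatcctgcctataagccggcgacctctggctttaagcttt
Ctsl: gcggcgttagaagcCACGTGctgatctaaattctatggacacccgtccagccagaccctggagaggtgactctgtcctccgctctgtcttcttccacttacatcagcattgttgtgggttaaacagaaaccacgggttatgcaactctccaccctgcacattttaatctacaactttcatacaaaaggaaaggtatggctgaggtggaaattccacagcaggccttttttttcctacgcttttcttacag
Ctsk: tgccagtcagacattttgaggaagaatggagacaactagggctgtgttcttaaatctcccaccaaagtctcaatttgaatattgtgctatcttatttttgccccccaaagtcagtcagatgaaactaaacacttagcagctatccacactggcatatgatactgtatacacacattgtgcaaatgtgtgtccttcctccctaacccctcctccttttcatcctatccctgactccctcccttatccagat

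The Ctsd window held 2 E-boxes, starting 245 and 98 bases before the start, and was the richest of the 3 in G and C, at 67.2%. The Ctsl window held 1 E-box, 236 bases before the start, at 47.2% GC, and the Ctsk window held 0, at 43.2% GC. Of the 10 genes, 7 had promoters in the RefSeq table (8 promoters), and 3 of these genes held the motif: Ctsd, Ctsl and Ctsa, whose E-box lay 12 bases before 1 of its 2 starts. Over all 32851 promoters of the table, 6.0% held CACGTG in a window of the same length. Ctsb, Ctse and Ctsh were not matched. These are letter matches and do not show that a factor binds there.

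Nephritic macrophages had higher levels of 3 of the 10 cathepsins than prenephritic macrophages: the aspartic protease Ctsd, 1.97-fold, and the cysteine proteases Ctsl, 1.84-fold, and Ctsb, 1.21-fold. None of the 10 fell, also at an unadjusted p under 0.05, and 7 did not pass the test (limma, adjusted p below 0.05 over all named genes). Of all named genes, 12.1% were called in this comparison, 6.74% as higher and 5.32% as lower. The median log2 difference was 0.12 over the 10 cathepsins and -0.02 over all named genes.

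In remission, 2 of the 10 were lower than in nephritic macrophages, Ctsd and Ctsk, and none was higher, also at an unadjusted p under 0.05. Of all named genes, 13.3% were called in this comparison, 3.27% as higher and 10% as lower. The median difference was -0.16 over the 10 cathepsins and -0.03 over all genes. Between remission and prenephritic macrophages none of the 10 passed, while 0.00634% of all genes did, which is 1 gene. At an unadjusted p under 0.05, Ctsl was higher and Ctsk lower in remission than in prenephritic arrays. The comparisons share arrays, so they are not separate evidence for a gene.

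**Figure D1:**
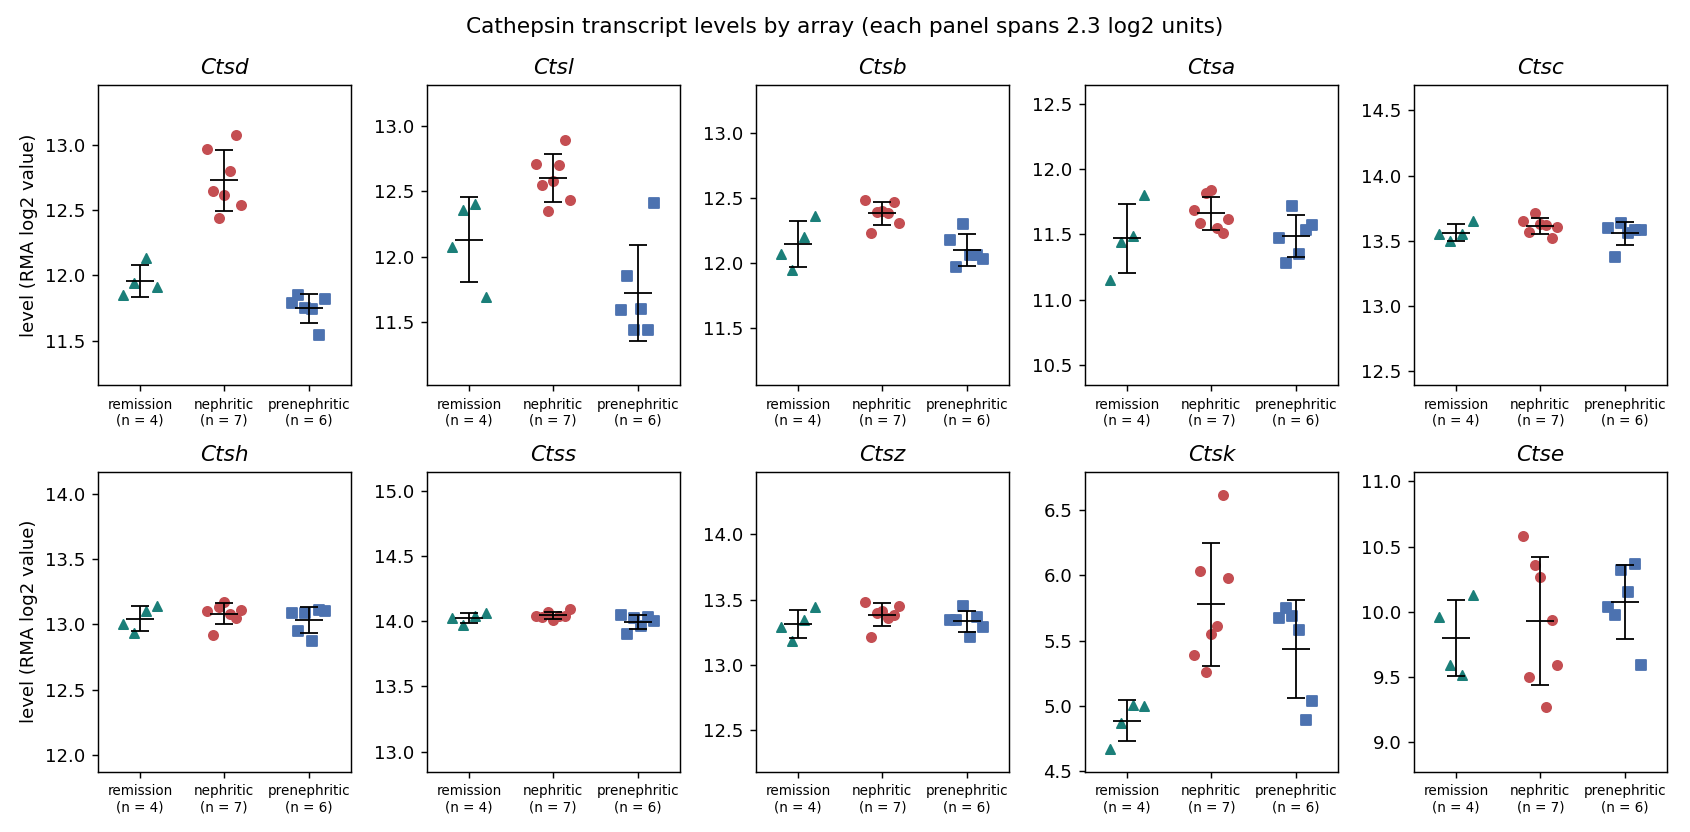
RMA log2 level of each of the 10 cathepsins, 1 point per array, with remission (n = 4), nephritic (n = 7) and prenephritic (n = 6) arrays from left to right; horizontal bars are group means and whiskers SDs, and every panel spans the same range of log2 units. For Ctsd the nephritic arrays sit at 12.44 and above, apart from both other groups, while Ctss, Ctsc, Ctsh and Ctsz are nearly level across all 17 arrays.

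Ctsd, cathepsin D, the main aspartic endopeptidase of the lysosome, had levels of 11.85, 11.94, 12.13 and 11.91 in remission arrays, 12.44, 12.65 and 13.08 (lowest, median, highest) in nephritic arrays and 11.54, 11.77 and 11.85 in prenephritic arrays. All 7 nephritic arrays lay above all 6 prenephritic and all 4 remission arrays. Groups separated in that way for 3.07% of all genes in the nephritic higher than prenephritic direction, and for 6.95% in the remission lower than nephritic direction. The nephritic minus prenephritic difference was 0.98 ± 0.10 (log2 ± SE, limma adjusted p = 1.26e-05). The remission minus nephritic difference was -0.77 ± 0.11 (limma adjusted p = 0.000305), which is 1.71-fold lower. The remission minus prenephritic difference was 0.21 ± 0.11 (limma adjusted p = 0.317), with a 95% interval of -0.031 to 0.443, so remission levels from slightly below to 0.443 above the prenephritic level lie within it.

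Ctse, cathepsin E, the other aspartic protease of the set and an endosomal rather than lysosomal enzyme, did not pass in any comparison. Its means were 9.80 ± 0.29 in remission, 9.93 ± 0.49 in nephritic and 10.08 ± 0.28 in prenephritic arrays (SD). Nephritic arrays alone ran from 9.27 to 10.58, the whole range of the gene, and the 3 groups overlapped. The nephritic minus prenephritic difference was -0.15 ± 0.20 (limma adjusted p = 0.725), and its interval of -0.573 to 0.282 lies below the estimate for Ctsd.

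Ctsl, cathepsin L, a cysteine endopeptidase that degrades lysosomal protein and helps to activate other proteases, had levels of 12.07, 12.36, 12.40 and 11.69 in remission arrays, 12.35, 12.58 and 12.89 in nephritic arrays and 11.44, 11.60 and 12.41 in prenephritic arrays. Among prenephritic arrays, replicate 6 at 12.41 stood above the other 5, which ended at 11.85. Of the 7 nephritic arrays 6 lay above every prenephritic array, and 3 of the 4 remission arrays lay above those 5 prenephritic arrays. The nephritic minus prenephritic difference was 0.88 ± 0.15 (limma adjusted p = 0.00126). The remission minus nephritic difference was -0.47 ± 0.17 (limma adjusted p = 0.0802, unadjusted 0.015), which did not pass, and neither did remission minus prenephritic at 0.41 ± 0.18 (limma adjusted p = 0.244, interval 0.031 to 0.787). Without prenephritic replicate 6 the remission minus nephritic difference stayed at -0.47 and its limma adjusted p was 0.0286.

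Ctsb, cathepsin B, which cuts both within and at the end of proteins, had levels of 12.07, 11.95, 12.20 and 12.36 in remission arrays, 12.23, 12.39 and 12.48 in nephritic arrays and 11.97, 12.06 and 12.30 in prenephritic arrays. The nephritic arrays were the highest as a group, with an overlap of their lowest array with the highest prenephritic one. The nephritic minus prenephritic difference was small, 0.28 ± 0.07 (limma adjusted p = 0.0173). The call was lost when quantile normalization was repeated (0.21, limma adjusted p = 0.0600), when array medians were subtracted (0.29, 0.0747) and without nephritic replicate 6 and prenephritic replicate 5 together (0.26, 0.0718). In remission minus nephritic, Ctsb was at -0.23 ± 0.08 (limma adjusted p = 0.0654), and that value passed without nephritic replicate 2 (-0.26, 0.0465) or without remission replicate 4 (-0.31, 0.0174).

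Ctsk, cathepsin K, the collagen-cutting cysteine protease known best from osteoclasts, was dim. Its levels were 4.67, 4.87, 5.01 and 5.00 in remission arrays, 5.26, 5.61 and 6.62 in nephritic arrays and 4.89, 5.62 and 5.75 in prenephritic arrays. All 4 remission arrays lay below all 7 nephritic arrays, whereas nephritic and prenephritic arrays overlapped. Such full separation, remission below nephritic, was found for 6.95% of all genes. Remission levels lay about the lower quartile of all values on the arrays, 4.995, where RMA compresses differences. The remission minus nephritic difference was -0.89 ± 0.23 (limma adjusted p = 0.0155), which is 1.86-fold lower. That call was lost without remission replicate 1 (-0.82, limma adjusted p = 0.0645) and without remission replicate 2 (-0.88, 0.0510). Neither nephritic minus prenephritic, 0.34 ± 0.20 (limma adjusted p = 0.311), nor remission minus prenephritic, -0.55 ± 0.23 (0.237), passed.

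Ctss, cathepsin S, the endopeptidase that completes invariant chain breakdown in antigen-presenting cells, hardly varied. It averaged 14.02 ± 0.04 in remission, 14.05 ± 0.03 in nephritic and 13.99 ± 0.06 in prenephritic arrays (SD). The nephritic minus prenephritic difference was 0.05 ± 0.04 (limma adjusted p = 0.466), with a 95% interval of -0.033 to 0.14. These levels lie close to the highest value on the arrays, 15. Saturation of the probes was not tested for Ctss or for other bright genes, Cst3 and Cd74 among them.

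The exopeptidases Ctsc, Ctsh and Ctsz did not pass in any comparison either. Ctsc, cathepsin C or dipeptidyl peptidase I, which activates granule serine proteases, averaged 13.56 ± 0.06, 13.62 ± 0.06 and 13.56 ± 0.09 in remission, nephritic and prenephritic arrays (SD). Ctsh, an aminopeptidase, averaged 13.04 ± 0.10 in remission, 13.08 ± 0.08 in nephritic and 13.03 ± 0.10 in prenephritic arrays. Ctsz, a carboxypeptidase also called cathepsin X, averaged 13.31 ± 0.11 in remission, 13.39 ± 0.09 in nephritic and 13.33 ± 0.08 in prenephritic arrays. For these 3 genes the nephritic minus prenephritic intervals ended at 0.168 for Ctsc, 0.168 for Ctsh and 0.174 for Ctsz. Larger increases of the measured signal lie outside them, but saturation of these bright probes was not tested either.

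Ctsa, cathepsin A or protective protein, which stabilises the lysosomal enzymes beta-galactosidase and neuraminidase, averaged 11.47 ± 0.27 in remission, 11.66 ± 0.13 in nephritic and 11.49 ± 0.16 in prenephritic arrays (SD). Its nephritic minus prenephritic difference was 0.17 ± 0.10 (limma adjusted p = 0.286). Its remission minus nephritic difference was -0.19 ± 0.11 (limma adjusted p = 0.271). Remission arrays spread from 11.15 to 11.80 and overlapped both other groups.

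**Figure D2:**
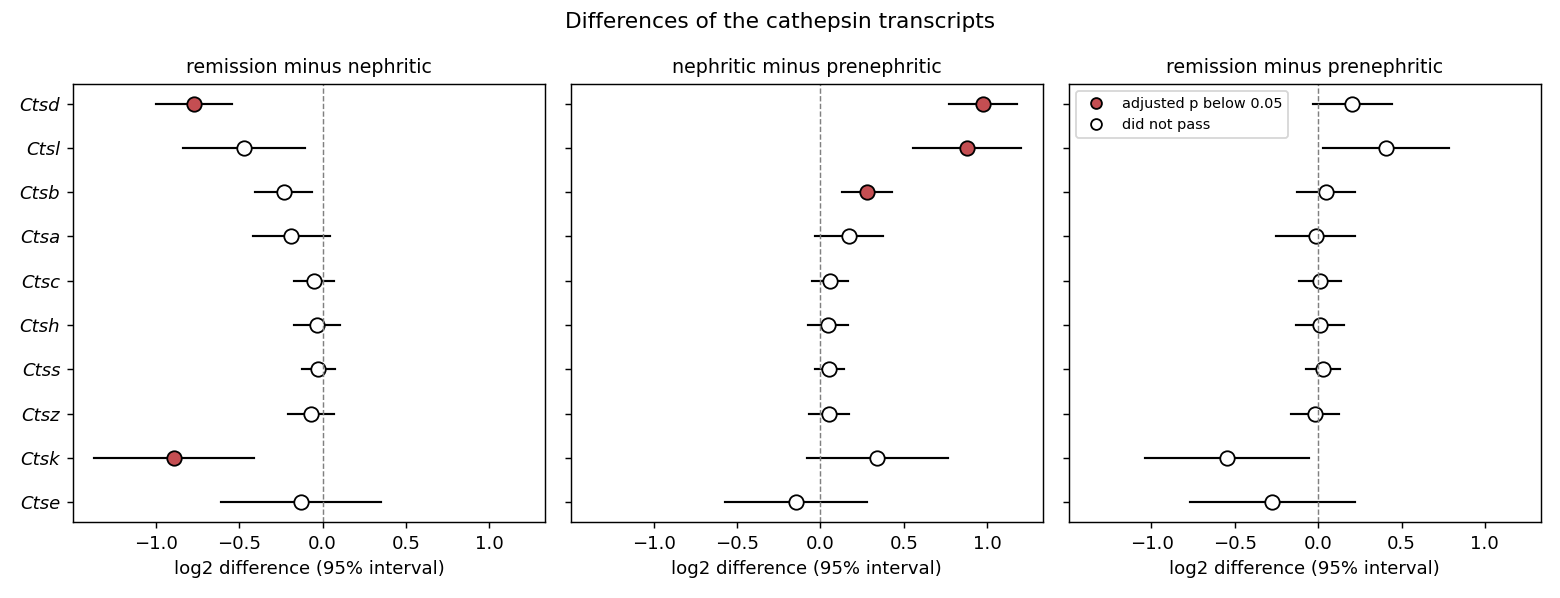
Log2 difference of each of the 10 cathepsins with its 95% interval from the linear model, for remission minus nephritic, nephritic minus prenephritic and remission minus prenephritic arrays; filled points passed an adjusted p of 0.05. Ctsd lies at -0.77, 0.98 and 0.21 in the 3 panels, Ctsl at -0.47, 0.88 and 0.41, and Ctss, Ctsc, Ctsh and Ctsz lie close to 0 in each.

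Within groups, Ctsd, Ctsl and Ctsk had 4 of their 6 highest and lowest arrays in common. All 3 were highest of the nephritic group in replicate 6 and lowest in replicate 3, highest of the remission group in replicate 3 (for Ctsk a near tie with replicate 4), and lowest of the prenephritic group in replicate 5 (for Ctsl a near tie with replicate 3). In the remission group the lowest array was replicate 1 for Ctsd and Ctsk and replicate 4 for Ctsl, and in the prenephritic group the highest was replicate 2 for Ctsd and Ctsk and replicate 6 for Ctsl. Shared extreme arrays were not particular to these 3 genes. The other 7 cathepsins were all highest in replicate 4 among remission arrays. Of those 7, Ctsb, Ctsc, Ctsh, Ctss and Ctsz were lowest in remission replicate 2, Ctsa in replicate 1 and Ctse in replicate 3. Ctsa, Ctsb, Ctsc and Ctss were lowest of the prenephritic group in replicate 2. Without nephritic replicate 6 and prenephritic replicate 5 together, Ctsd and Ctsl still passed in nephritic minus prenephritic arrays. Across the 26 alternatives of each comparison the nephritic minus prenephritic difference ran from 0.88 to 1.03 for Ctsd and from 0.78 to 1.02 for Ctsl, with limma adjusted p-values up to 0.000628 and 0.00926. The remission minus nephritic difference of Ctsd ran from -0.92 to -0.71, with adjusted p-values up to 0.00384.

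Tubule transcripts varied between arrays and between groups. A tubule score, the mean of 23 proximal and distal tubule markers after each was centred on its own mean, was 1.141, 1.495, 0.746 and -0.044 in remission arrays, -2.33, -0.104 and 0.619 (lowest, median, highest) in nephritic arrays and -1.061, -0.0135 and 0.826 in prenephritic arrays. Of the 12 proximal markers 0 passed in any comparison by limma, although 10 were higher in remission than in nephritic arrays at an unadjusted p under 0.05, and of the 11 distal markers measured 3 (Calb1, Pvalb and Wfdc15b) were higher in remission than in nephritic arrays. Mean levels of the proximal markers were 9.65 to 11.22 in remission, 7.16 to 10.63 in nephritic and 8.66 to 10.69 in prenephritic arrays. Distal markers averaged 9.38 to 10.9, 7.32 to 10.04 and 8.34 to 10.07 in remission, nephritic and prenephritic arrays, and no marker of either list was below the lower quartile of all values. With the score as a covariate, the nephritic minus prenephritic differences were 1.02 ± 0.09 for Ctsd (limma adjusted p = 2.19e-06), 0.96 ± 0.12 for Ctsl (4.34e-05) and 0.26 ± 0.07 for Ctsb (0.0144). The remission minus nephritic differences were then -0.92 ± 0.12 for Ctsd (0.000238), -1.003 ± 0.27 for Ctsk (0.031) and -0.79 ± 0.15 for Ctsl (0.00478), so Ctsl passed with the score and not without it. The remission minus prenephritic difference of Ctsl was 0.17 ± 0.15 with the score (0.842).

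**Figure D3:**
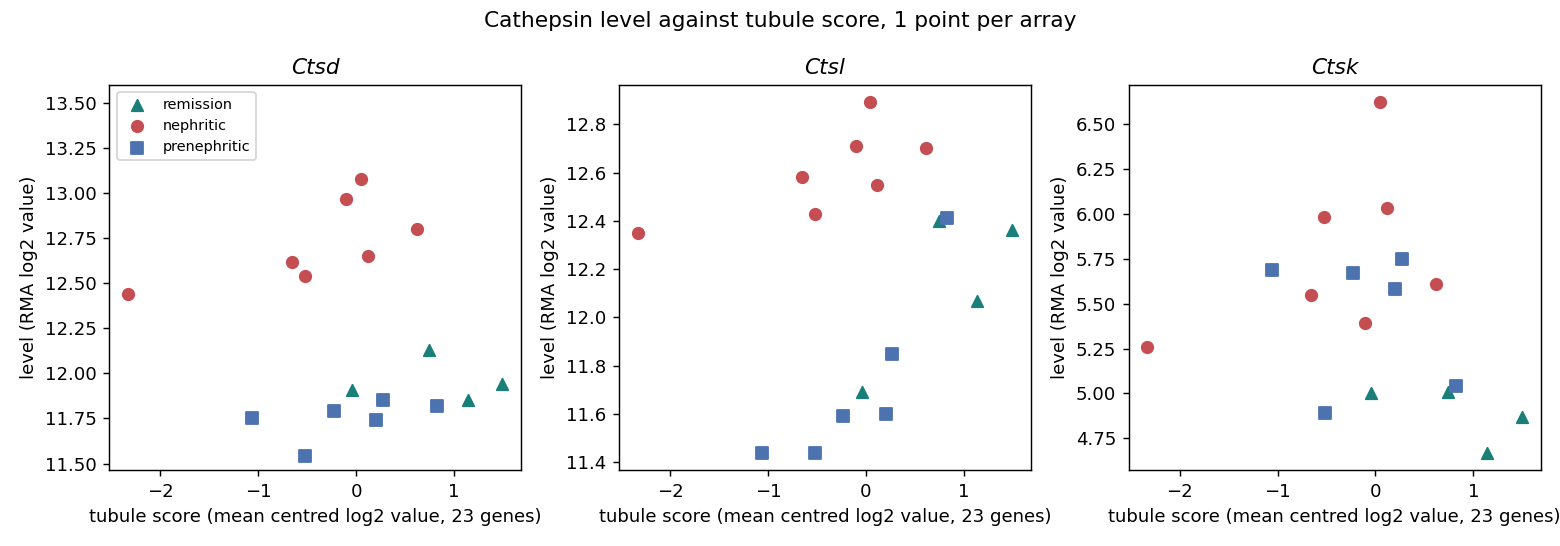
RMA log2 level of Ctsd, Ctsl and Ctsk against the tubule score, 1 point per array, for remission (triangles), nephritic (circles) and prenephritic (squares) arrays; the vertical axes differ in range. For Ctsd all nephritic arrays lie above all others, but their scores end at 0.619, below those of remission replicates 1 to 3 and prenephritic replicate 6. That array, at 0.826 the highest score of its group, is also the group's highest for Ctsl.

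Markers of other cells moved with the groups as well, and their part in the cathepsin differences was not tested. Of 10 fibroblast and mesangial markers, 2 (Mgp and Acta2) were higher and 1 (Itga8) lower in nephritic than in prenephritic arrays, and 1 (Itga8) was higher and 2 (Pdgfrb and Mgp) lower in remission than in nephritic arrays. Their list medians were 0.52 in nephritic minus prenephritic and -0.49 in remission minus nephritic arrays, the same signs as for Ctsd. Medians of the B and plasma cell (0.675 and -0.649), T and NK cell (0.386 and -0.538) and dendritic cell lists (0.033 and -0.456) had these signs too. Those of the mast cell (-0.643 and 0.64), proximal tubule (-0.442 and 1.238) and distal tubule lists (-0.211 and 1.291) had the opposite signs. The mean level of the fibroblast and mesangial markers was 6.78 to 7.51 in remission, 6.75 to 7.62 in nephritic and 6.68 to 7.28 in prenephritic arrays. Mgp, a matrix protein, differed by 1.47 ± 0.18 in nephritic minus prenephritic (limma adjusted p = 8.33e-05) and -0.67 ± 0.21 in remission minus nephritic arrays (0.041).

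Of 9 endothelial markers 1 passed, Pecam1 (CD31, which leukocytes also carry), at 1.84 ± 0.20 in nephritic minus prenephritic (limma adjusted p = 2.34e-05) and -2.05 ± 0.22 in remission minus nephritic arrays (5.63e-05). The median of the endothelial list was 0.165 in nephritic minus prenephritic arrays. In remission minus nephritic arrays that median was 0.411, opposite in sign to Pecam1. At an unadjusted p under 0.05, 3 endothelial markers were higher and 2 lower in remission than in nephritic arrays. Endothelial markers had a mean level of 7.24 to 7.91 in remission, 7.1 to 7.97 in nephritic and 6.65 to 7.77 in prenephritic arrays. Among 9 neutrophil markers, Csf3r differed by 0.66 ± 0.15 in nephritic minus prenephritic (limma adjusted p = 0.00732) and -0.85 ± 0.17 in remission minus nephritic arrays (0.00346), and Mmp9 was lower in nephritic than in prenephritic arrays. The neutrophil list averaged 5.55 to 6.82 in remission, 5.85 to 6.82 in nephritic and 5.84 to 7.41 in prenephritic arrays.

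Of 8 B and plasma cell markers, 5 were higher and 1 (Tnfrsf17) lower in nephritic than in prenephritic arrays, and 1 (Tnfrsf17) was higher and 3 lower in remission than in nephritic arrays. The list averaged 7.28 to 7.51 in remission, 7.76 to 8.57 in nephritic and 6.85 to 7.99 in prenephritic arrays. Of 9 T and NK cell markers, 3 (Cd3e, Cd3g and Cd8a) were higher and 1 (Klrd1, at -2.04 ± 0.49, limma adjusted p = 0.0111) lower in nephritic than in prenephritic arrays. In remission minus nephritic arrays 0 of these were higher and 5 (Cd3e, Cd3g, Cd3d, Cd8a and Nkg7) lower, and the list averaged 5.21 to 5.35 in remission, 5.51 to 5.95 in nephritic and 5.26 to 5.92 in prenephritic arrays. Of 7 mast cell markers, 3 were lower in nephritic than in prenephritic arrays and the same 3 higher in remission than in nephritic arrays, with list means of 5.2 to 5.97 in remission, 4.82 to 5.45 in nephritic and 5.15 to 6.13 in prenephritic arrays. Of 9 dendritic cell markers, 2 (Xcr1 and Itgax) were higher and 3 (Flt3, Cd209a and Siglech) lower in nephritic than in prenephritic arrays, and 1 (Siglech) was higher and 3 (Zbtb46, Xcr1 and Itgax) lower in remission than in nephritic arrays. That list averaged 7.05 to 7.84 in remission, 7.24 to 8.38 in nephritic and 7.31 to 9.03 in prenephritic arrays.

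Of the macrophage markers, Itgam (CD11b) was 2.09 ± 0.17 higher (limma adjusted p = 3.19e-06) and Mertk, a receptor for apoptotic cells, 1.22 ± 0.21 higher (0.00122) in nephritic than in prenephritic arrays. Both were lower in remission than in nephritic arrays.

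The genes whose centred values lay nearest to each called cathepsin over the 17 arrays were found by root mean square log2 distance. They were chosen for likeness on these same arrays, so their group differences and p-values are not separate evidence. For Ctsd they were Ly6k (0.162), Ift22 (0.179) and Ms4a6d (0.180), against a spread of Ctsd about its own mean of 0.475. Ms4a6d, a membrane protein of the Ms4a family, was 0.84 ± 0.09 higher in nephritic than in prenephritic arrays (limma adjusted p = 2.34e-05) and differed by -0.68 ± 0.10 in remission minus nephritic arrays (0.000503). For Ctsl they were Cib1 (0.231), Lrp11 (0.232) and Snn (0.233), with a spread of Ctsl of 0.467. For Ctsk they were Gfpt1 (0.249), Nkg7 (0.252) and Aurka (0.252), with a spread of Ctsk of 0.491. The neighbours of Ctsd therefore lay closer to it, relative to its spread, than those of Ctsl and Ctsk to theirs.

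The other 13 cathepsin genes on the array, among them Ctsf, Ctso, Ctsw and a placental group specific to rodents, were mostly dim. Their mean level per array was 4.62 to 4.7 in remission, 4.61 to 4.66 in nephritic and 4.63 to 4.76 in prenephritic arrays, and 9 of 13 averaged below the lower quartile of all values. One passed, Ctsm of the placental group, at -0.21 ± 0.05 in nephritic minus prenephritic arrays (limma adjusted p = 0.0159), and its own level was below that quartile. That call was lost when array medians were subtracted (limma adjusted p = 0.103). Ctsf, a brighter cysteine cathepsin of the list, lay in the direction opposite to Ctsd without passing, at -0.39 ± 0.17 in nephritic minus prenephritic (limma adjusted p = 0.157) and 0.57 ± 0.19 in remission minus nephritic arrays (0.0609). The second of these passed with quantile normalization repeated (0.60, 0.0491) and with the tubule covariate (0.80, 0.0261).

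**Figure D4:**
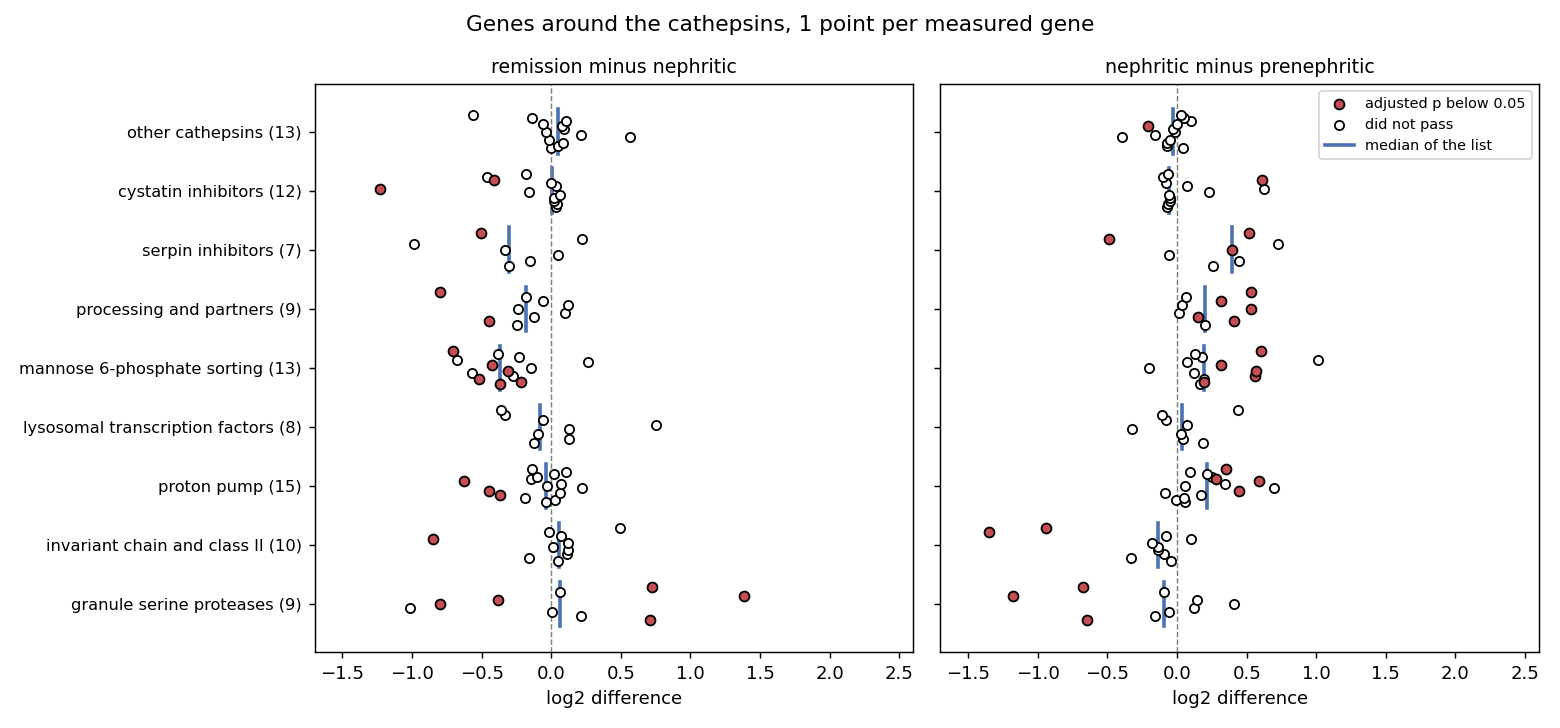
Log2 differences of the measured genes in 9 lists around the cathepsins, for remission minus nephritic and nephritic minus prenephritic arrays; each point is 1 gene, filled where the adjusted p was below 0.05, vertical bars are list medians, and the number measured stands beside each list name. Sorting genes have a median of 0.19 in nephritic minus prenephritic and -0.37 in remission minus nephritic arrays, and the filled points of the sorting, partner and proton pump lists all lie above 0 in nephritic minus prenephritic and below 0 in remission minus nephritic arrays.

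Among the endogenous inhibitors, 1 of 12 measured cystatins was higher in nephritic than in prenephritic arrays and 2 were lower in remission than in nephritic arrays. Of all named genes, 6.74% were higher and 5.32% lower in nephritic than in prenephritic arrays. In remission minus nephritic arrays 3.27% were higher and 10% lower. These shares are the background for the counts of this list and of those that follow. Cstb, a cytosolic inhibitor of cysteine cathepsins, differed by 0.61 ± 0.07 in nephritic minus prenephritic (limma adjusted p = 7.34e-05) and -0.41 ± 0.08 in remission minus nephritic arrays (0.00456). Cst7, cystatin F, an inhibitor of Ctsc within the endosomes of immune cells, differed by -1.23 ± 0.23 in remission minus nephritic arrays (0.0027). Cst7 was dim, at a mean of 4.21 in remission and 5.44 in nephritic arrays, so the size of that difference is uncertain. In nephritic minus prenephritic arrays it did not pass (0.63 ± 0.21, 0.0597), but did with quantile normalization repeated (0.0408) and with the tubule covariate (0.0353). Cst3, the secreted cystatin C, did not pass at -0.06 ± 0.04 in nephritic minus prenephritic arrays (0.409), and 9 of the 12 cystatins averaged below the lower quartile of all values. Of 7 serpins, 2 were higher and 1 lower in nephritic than in prenephritic arrays. Serpinb9, the inhibitor of granzyme B, differed by 0.51 ± 0.14 (limma adjusted p = 0.0243) and by -0.50 ± 0.16 in remission minus nephritic arrays (0.0452), whereas Serpinb8 was at -0.49 ± 0.14 in nephritic minus prenephritic arrays (0.031). The remission call of Serpinb9 was lost with quantile normalization repeated (-0.48, limma adjusted p = 0.0556), and the nephritic minus prenephritic call of Serpinb8 with array medians subtracted (0.0653). The serpins higher in nephritic than in prenephritic arrays numbered 1 with quantile normalization repeated and 4 with the tubule covariate.

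Of 9 genes whose products process or partner cathepsins, 5 were higher and 0 lower in nephritic than in prenephritic arrays, and 0 were higher and 2 lower in remission than in nephritic arrays. Legumain (Lgmn), an asparaginyl endopeptidase that cleaves cathepsins to their mature chains, was 0.53 ± 0.11 higher in nephritic than in prenephritic arrays (limma adjusted p = 0.00457), and Grn, the precursor of the lysosomal granulins, was 0.41 ± 0.07 higher (0.00151). Scarb2 (LIMP-2), a lysosomal membrane receptor, differed by 0.53 ± 0.12 in nephritic minus prenephritic arrays (0.00855) and by -0.80 ± 0.14 in remission minus nephritic arrays (0.00138). Psap, the precursor of the saposins, which cathepsin D processes, did not pass in nephritic minus prenephritic arrays at 0.07 (0.628). The list's median was 0.20 in nephritic minus prenephritic and -0.18 in remission minus nephritic arrays.

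Of 13 genes of mannose 6-phosphate tagging and sorting, 5 were higher in nephritic than in prenephritic arrays and 6 were lower in remission than in nephritic arrays, with 0 in the opposite direction of either comparison. With the tubule covariate 6 were higher and 3 lower in those comparisons, and with quantile normalization repeated 1 gene of the list passed with a positive remission minus nephritic difference. Gga2, an adaptor that loads receptors at the Golgi, was 0.57 ± 0.08 higher in nephritic than in prenephritic arrays (limma adjusted p = 0.000214). Sort1, sortilin, an alternative sorting receptor, differed by 0.61 ± 0.15 in nephritic minus prenephritic (0.0136) and -0.71 ± 0.17 in remission minus nephritic arrays (0.0111). Gnptab, a subunit of the enzyme that begins the tag, differed by 0.32 ± 0.08 in nephritic minus prenephritic (0.0187) and -0.43 ± 0.09 in remission minus nephritic arrays (0.00697). With the tubule covariate the remission minus nephritic calls of Sort1 (-0.67, limma adjusted p = 0.0534) and Gnptab (-0.26, 0.0754) were lost. The nephritic minus prenephritic call of Gnptab was lost with array medians subtracted (0.32, 0.0778). The receptors Igf2r, at 1.01 ± 0.35 (0.0727), and M6pr, at 0.18 (0.179), did not pass in nephritic minus prenephritic arrays. Igf2r passed there with quantile normalization repeated (1.04, limma adjusted p = 0.0498) and with the tubule covariate (1.21, 0.00281). In remission minus nephritic arrays Igf2r did not pass (-0.67, 0.274), but did with the covariate (-1.45, 0.0116).

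The proton pump that acidifies the lysosome had 4 of 15 measured genes higher in nephritic than in prenephritic arrays and 3 of 15 lower in remission than in nephritic arrays, with 0 in the opposite directions. With the tubule covariate 8 were higher and 4 lower in those comparisons. Atp6v1b2, a subunit of the part that splits ATP, differed by 0.59 ± 0.09 in nephritic minus prenephritic (limma adjusted p = 0.000288) and -0.62 ± 0.10 in remission minus nephritic arrays (0.000607). Atp6v0d1, a subunit that joins the pump's parts, differed by 0.45 ± 0.08 (0.000961) and -0.45 ± 0.08 (0.00266) in the same comparisons. Of 8 measured lysosomal transcription factors and their regulators, 0 passed in either comparison by limma; at an unadjusted p under 0.05, 0 were higher and 1 lower in nephritic minus prenephritic arrays, and 1 was higher and 1 lower in remission minus nephritic arrays. Tfeb was at -0.11 ± 0.12 in nephritic minus prenephritic arrays (0.649), Tfe3 at -0.08 (0.581) and Mitf at -0.32 ± 0.13 (0.13), and with the tubule covariate Mitf was called lower (-0.38, 0.0276). These are transcript levels, whereas these factors are known to be controlled largely by their movement to the nucleus.

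Of the 10 class II pathway genes, which hold substrates and users of cathepsin S and L cleavage, 0 were higher and 2 lower in nephritic than in prenephritic arrays. H2-Ob and H2-Oa, the chains of the DM inhibitor H2-O, differed by -0.94 ± 0.19 (limma adjusted p = 0.00358) and -1.35 ± 0.33 (0.0133), and Cd74, the invariant chain that Ctss cleaves, did not pass at -0.04 ± 0.04 (0.604). In remission minus nephritic arrays 1 of the 10 passed, H2-DMb2, a chain of the peptide exchanger H2-DM, at -0.85 ± 0.20 (limma adjusted p = 0.00894). With the tubule covariate 4 were lower in nephritic than in prenephritic arrays, and in remission minus nephritic arrays 2 (H2-Ob and H2-DMb1) were higher and 1 lower. B and dendritic cell markers moved between the same groups, and their part in these differences was not tested.

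Ctsc is known to activate granule serine proteases such as granzymes and mast cell chymases. Of 9 such granule proteases measured, which include tryptases that do not need Ctsc in mice, the mast cell proteases Tpsb2 (a tryptase), Cma1 and Mcpt4 (chymases) were lower in nephritic than in prenephritic arrays, with differences of -0.68 ± 0.10 (limma adjusted p = 0.000271), -0.64 ± 0.16 (0.0131) and -1.18 ± 0.30 (0.0167). The same 3 were higher in remission than in nephritic arrays, Tpsb2 by 0.73 (limma adjusted p = 0.00051), and 2 of the 9 were lower. These 2 were Gzmb, granzyme B of cytotoxic lymphocytes, at -0.80 (limma adjusted p = 0.0198), and Gzmk, at -0.38 (0.0401). Mcpt4 averaged 3.94 in nephritic arrays, and Gzmb and Gzmk averaged 4.22 and 4.98 in remission arrays. Those means were below the lower quartile of all values, as were 4 of the 9 genes on average over all arrays. The sizes of their differences are therefore uncertain. These 3 mast cell proteases are also on the mast cell marker list, and with the tubule covariate 1 of the 9 (Tpsb2) was higher and 0 lower in remission minus nephritic arrays. Between remission and prenephritic arrays 0 genes of any of the 9 lists passed by limma at an adjusted p of 0.05. At an unadjusted p under 0.05 the sorting list had 3 higher and 3 lower there, and the proton pump list 3 higher and 0 lower.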

How the data were processed

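Gene expression was measured on 17 Affymetrix arrays, 1 per sample, from remission (4), nephritic (7) and prenephritic (6) kidney macrophages, grouped by the sample labels. Total RNA was extracted with a kit for small samples and labelled as biotinylated cRNA, per the labels' protocols. The authors deposited log2 values made by RMA, per the submitters' processing notes. RMA corrects background, equalises the distributions of the arrays by quantiles and summarises probe sets. The probe sets are named by Entrez gene id, so their definition is by gene. For the name and version of that definition, the version of RMA and the genome build the sources used here give nothing. RMA equalises the distributions before it summarises probe sets, so a change in total RNA per cell cannot be read and dim genes show compressed differences. The medians of the deposited values still ran from 7.49 in nephritic replicate 3 to 7.679 in prenephritic replicate 6. The number of arrays limits the precision.

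Of 16539 probe sets, 64 controls and 695 without a symbol in GEO's platform annotation were left out, which left 15780 named genes with 1 probe set each and no filter on level. With limma 3.58.1 in R 4.3.3, all 17 arrays entered a single fit of group means (14 residual degrees of freedom). Moderated two-sided tests were adjusted over all 15780 genes (Benjamini-Hochberg), with a threshold of 0.05. The procedure was tested on simulated data. The members and the lists were chosen with earlier results of these data known. All 10 members are described. From each list, up to 3 called genes with the smallest p per direction and comparison were named, with any whose role bears directly on a member. The 3 nearest genes were given for members that passed with a difference of at least 0.5 in size. Promoters came from RefSeq (GRCm38.p6). Alternatives changed the filter, normalization, variance prior, array weights, groups fitted, replicate block and tubule covariate, or left out arrays.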

Additional observations from a re-analysis of the deposited data

Results flagged for a closer look

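Over the 10 cathepsins in 3 groups, 30 sets of arrays were checked for 1 array far from its own group by Dixon's test, and 3 were found. Chance alone flags about 5% of such sets. In nephritic arrays, Ctsz was lowest in replicate 2, at 13.21. In prenephritic arrays, Ctsd was lowest in replicate 5, at 11.54, and Ctsc was lowest in replicate 2, at 13.38. Each is the low end of its group, and Ctsd kept its calls without prenephritic replicate 5.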

How the results depend on the processing

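Each comparison was recomputed under 26 alternatives, 17 of which left out 1 array, which gave 780 differences of the 10 cathepsins. Of these, 745 kept their direction and side of the threshold, 5 lost and 5 gained a call, and 25 changed sign, 0 of them with an adjusted p below 0.05. Ctsd and Ctsl kept their nephritic minus prenephritic calls, and Ctsd its remission minus nephritic call, under all 26. The lost and gained calls of Ctsb, Ctsk and Ctsl are given with those genes, besides that of Ctsb with array weights in remission minus nephritic arrays (-0.24, limma adjusted p = 0.0257).

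The count of cathepsins lower in remission than in nephritic arrays ran from 1 to 3 when 1 array was left out. Over all named genes, 1904 were called in nephritic minus prenephritic arrays, 3034 with the tubule covariate, 1236 without nephritic replicate 6 and prenephritic replicate 5 together, and 1466 to 2032 without 1 array. In remission minus nephritic arrays 2100 were called, 3624 with array weights, 1301 with the tubule covariate and 1021 to 2921 without 1 array. In remission minus prenephritic arrays 1 was called, 5 with quantile normalization repeated, 3 with medians subtracted, 3 with a trended robust prior, 358 with array weights, 478 with the replicate block, and 0 with 2 groups fitted, with the tubule covariate or without nephritic replicate 6 and prenephritic replicate 5. Without 1 array that count ran from 0 to 199, with 199 without prenephritic replicate 6 and 17 without remission replicate 4. The cause of these shifts was not tested.

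Same-numbered arrays of different groups did not all deviate together (14 pairs, r from -0.261 to 0.797, median 0.12, 8 over 0.1), so the numbers were not taken to pair samples, although pairs with different numbers had a lower median (80 pairs, 0.0055, 25 over 0.1). With the replicate block 1700 genes were called in nephritic minus prenephritic, 2887 in remission minus nephritic and 478 in remission minus prenephritic arrays, and the cathepsin counts stayed at 3 higher, 2 lower and 0.

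The sign changes were of small differences, except for Ctse with the tubule covariate. In remission minus nephritic arrays Ctse went from -0.13 to 0.25 with it (limma adjusted p = 0.544). In nephritic minus prenephritic arrays Ctsh was at -0.0251 with quantile normalization repeated. In remission minus nephritic arrays Ctss was at 0.0041 with it, and with the tubule covariate Ctsc was at 0.0191, Ctse at 0.25, Ctsh at 0.0353, Ctss at 0.0045 and Ctsz at 0.0059. In remission minus prenephritic arrays Ctsh was at -0.0384 with quantile normalization repeated, Ctsc at -0.0026 with array weights, and Ctsa at 0.11, Ctse at 0.0076 and Ctsz at 0.0372 with the tubule covariate. Without 1 array, Ctsh ran from -0.0692 to 0.0011 in remission minus nephritic arrays, and in remission minus prenephritic arrays Ctsa ran from -0.1254 to 0.0913, Ctsb from -0.0268 to 0.1103, Ctsc from -0.0252 to 0.0308, Ctsh from -0.0239 to 0.0465 and Ctsz from -0.0637 to 0.0248.

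The counts of the 9 lists were also recomputed under both other scalings and the tubule covariate, a choice made after the data had been seen. In nephritic minus prenephritic arrays the counts that moved by over 1.5 times were those of serpins higher (2, to 1 with quantile normalization repeated and 4 with the tubule covariate), serpins lower (1, to 0 with medians subtracted), proton pump genes higher (4, to 8 with the covariate), class II genes lower (2, to 4 with the covariate), transcription factors lower (0, to 1 with the covariate), other cathepsins lower (1, to 0 with medians subtracted) and cystatins higher (1, to 2 with quantile normalization repeated or the covariate). In remission minus nephritic arrays they are given with the lists, besides 3 serpins lower and 1 higher with the covariate. The sorting, partner and proton pump lists had 0 genes lower in nephritic than in prenephritic arrays under all of them.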
